A study of Mus musculus with 12 samples.

Results

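The genes described here are 8 that move, make or break down GABA, out of 24470 genes in the deposited table. They are the transporters Slc6a11, Slc6a12, Slc6a13 and Slc6a6, the GABA-forming enzymes Gad1 and Gad2, and the GABA-degrading enzymes Abat and Aldh5a1. The set was chosen by gene symbol around Slc6a11, which was selected on its rise in knockout testes, and the 7 others were added for their function, with earlier results of these data known. Slc6a11 in knockout against control testes is therefore given as a description with no test. All 8 genes were in the table and all 8 passed the filter on low counts, which asked for about 0.38 CPM (read counts relative to each library's scaled total) in at least 6 libraries. Slc6a11 reached that level in 3 of 6 control and in 6 of 6 cKO libraries, so it passed through the group in which it is high.

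Whole testes were taken from E14.5 mouse embryos for RNA-seq, in 6 control and 6 cKO pools of 3 testes each. Control embryos were Nr2f2 f/f, that is, with both alleles of the nuclear receptor gene Nr2f2 floxed and no Cre. The cKO embryos were Wt1 CreER x Nr2f2 f/f, in which tamoxifen activates Cre in cells with Wt1 promoter activity, the somatic progenitors of the gonad. Only cKO embryos carried this Cre allele, so an effect of the allele or of Cre itself cannot be told apart from loss of Nr2f2. The pregnant females carried both genotypes and received tamoxifen after the start of gonad formation, so control embryos were exposed to the drug too. The floxed allele carries a LacZ cassette that is expressed once the allele is deleted, and some interstitial cells of cKO testes keep NR2F2 protein, so the model is a partial loss. Testes rather than sorted cells were lysed, and a lower level of an RNA can come from fewer cells of a type or from less RNA per cell. A higher level can come from a larger share of the cells that hold the RNA or from more RNA per cell. These cannot be told apart here. Nothing in the labels says how the pooled embryos were divided among litters, so p-values measure the spread between these pools.

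GABA is formed from glutamate by the glutamate decarboxylases, carried across membranes by sodium- and chloride-coupled transporters of the SLC6 family, and broken down in mitochondria to succinic semialdehyde and then to succinate. The pathway is best known from inhibitory neurons and astrocytes of the brain. Outside the brain, the same transporter family also takes up taurine and betaine, which cells use as osmolytes, and GABA and its receptors have been described in Leydig cells of the testis.

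Library depth ran from 7044531 to 39965574 counts in control pools and from 7322959 to 59404778 counts in cKO pools. Nr2f2 itself was at 175 ± 8.87 CPM (SD, n = 6) in control and at 75.9 ± 24.5 CPM (SD, n = 6) in cKO pools, a log2 fold change of -1.21 (SE 0.16, adjusted p = 0.000548 by edgeR's quasi-likelihood test), and cKO pools ranged from 50.2 to 119 CPM. The tissue label was read against defining markers in each pool. Amh, the anti-Müllerian hormone of Sertoli cells, was present in all 12 pools, at 278 CPM or more. Xist, the RNA of the inactive X chromosome, exceeded 100 CPM in 4 pools, control replicate 1 and cKO replicates 3, 5 and 6 (304 to 891 CPM), and lay between 5.15 and 7.68 CPM in the 8 others. Foxl2, a granulosa cell transcription factor, was at 14.6 to 47.2 CPM in those 4 pools and at 0.23 to 1.30 CPM in the 8 others. Amh was at 333 to 503.6 CPM in the 4 pools and at 278 to 632 CPM in the 8 others, and Ptgds, another Sertoli cell marker, at 63.6 to 90.5 CPM and 93.5 to 111 CPM. Xist and Foxl2 in these 4 pools thus go against a label of testis alone, while Sertoli cell RNA was present in them, and whether ovarian tissue had entered these pools was not tested. They were kept under their labels, and the genotype contrast was also fitted on the 8 pools with low Xist.

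The stretch upstream of Slc6a11 is shown because it is the member with the large difference and because NR2F2, a nuclear receptor, is known to recognise DNA through the letters AGGTCA. The 250 bases before its annotated start, chr6:114130991-114131240 on the + strand (RefSeq, GRCm38.p6), read 5′ to 3′ as follows, with capitals marking copies of CAAGGTCA, which contains AGGTCA with the letters CA before it.
Slc6a11: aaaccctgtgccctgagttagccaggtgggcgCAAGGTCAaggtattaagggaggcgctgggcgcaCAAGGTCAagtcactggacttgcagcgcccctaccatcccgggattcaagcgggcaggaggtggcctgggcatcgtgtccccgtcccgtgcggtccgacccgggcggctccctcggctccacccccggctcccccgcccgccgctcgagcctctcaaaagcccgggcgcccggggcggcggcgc
The capitals begin their AGGTCA letters 216 and 182 bases before the start, and both copies lie on the + strand. AGGTCA, searched on both strands, occurs in 4607 of 32851 windows of 250 bases before annotated mouse gene starts (14.0%), and 446 windows (1.36%) hold 2 or more. CAAGGTCA occurs in 438 windows (1.33%), and 4 windows (0.0122%) hold 2 copies, those of Slc6a11, Hcn2, Acsl6 and Gm41813. The CAAGGTCA search was made after the Slc6a11 stretch had been read, and its share is a description only. The paper states that motifs of other nuclear receptors, Nr5a1 and Esrrg among those it names, resemble one another and that of NR2F2. These letters are thus not particular to NR2F2. Repeated AGGTCA copies with a gap of 1 base between them occur in 0.0335% of windows and in none of the members' windows.

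Of the 8 members, 6 had such windows in the RefSeq table, and Abat and Slc6a6 did not. A lone AGGTCA was found in 1 of 5 windows of Slc6a12, 198 bases before its start, and in 1 of 3 windows of Slc6a13, 224 bases before an alternative start and on the opposite strand. That Slc6a13 window, chr6:121303389-121303638, lies inside the gene interval used for counting, not upstream of it. The windows of Gad1, Gad2 and Aldh5a1 held none. The Slc6a12 windows belong to starts upstream of the gene interval used for counting, which begins at base 121346697 of chromosome 6. A match of letters says nothing of whether NR2F2 or another receptor binds there.

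Slc6a11 encodes the GABA transporter best known from astrocytes (Entrez Gene 243616, chr6:114131241-114249886 of mm10). Control replicates 1 to 6 had 0.216, 0.122, 0.226, 0.424, 0.536 and 0.578 CPM. The corresponding cKO replicates had 4.01, 3.44, 2.81, 5.54, 2.58 and 3.72 CPM. Every cKO pool lay above every control pool. The means were 0.350 ± 0.188 CPM (SD, n = 6) and 3.68 ± 1.06 CPM (SD, n = 6), a ratio of 10.5 and a fitted log2 fold change of 3.62. These control levels rest on 3 to 9 counts per library, and the cKO levels on 19 to 222 counts. Across all genes tested, 2.39% had cKO pools entirely above the control pools, and nothing is read from Slc6a11 being among them, since it was chosen for this difference. In the 8 pools with Xist under 100 CPM its log2 fold change was 3.79. All alternative settings gave log2 fold changes between 3.43 and 3.79.

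**Figure D1:**
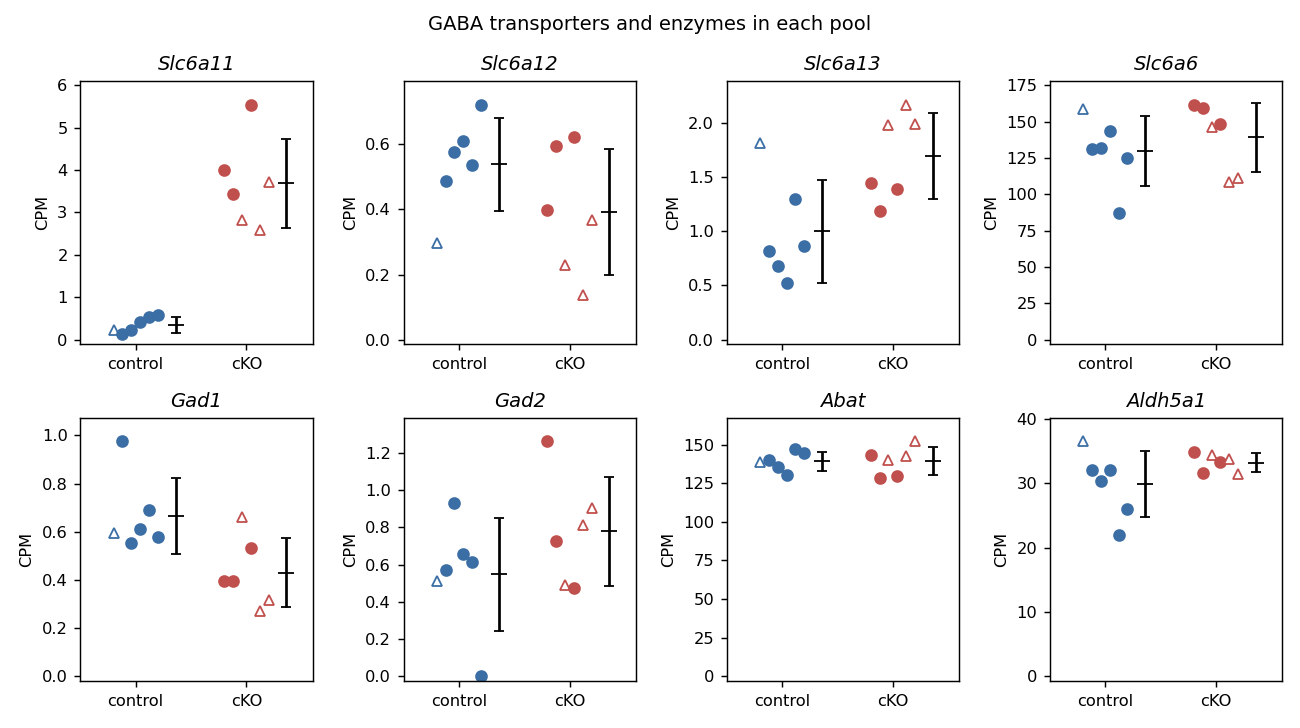
CPM of the 8 genes in each pool of 3 testes, control (blue) and cKO (red), one point per pool in replicate order from left to right, with the mean and SD (n = 6) as black bars; open triangles are the 4 pools with Xist over 100 CPM and each panel has its own axis. Slc6a11 is at 0.122 to 0.578 CPM in control and 2.58 to 5.54 CPM in cKO pools, and the groups of the 7 other genes overlap.

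None of the 7 other members passed the test. Adjusted by Benjamini-Hochberg over all 15572 genes tested, the quasi-likelihood test of edgeR called 1266 genes (8.13%), 510 higher (3.28%) and 756 lower (4.85%) in cKO testes, but 0 of these 7. In the 8 pools with low Xist it called 1103 genes, of which 574 (52.0%) were higher, against 40.3% over all 12 pools, and 0 of these 7. At an unadjusted p under 0.05 there were 2 of the 7, Slc6a13 and Gad1, beside 25.2% of all genes tested. DESeq2 and limma-voom also called 0 of the 7. With all 8 members the median log2 fold change was 0.12, beside 0.00 over all genes tested.

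The nearest relatives of Slc6a11 lie on the same chromosome. Slc6a13 (Entrez Gene 14412, chr6:121300296-121337718) encodes a GABA and taurine transporter known from liver, kidney and meninges. Its levels in control replicates 1 to 6 were 1.81, 0.813, 0.679, 0.518, 1.30 and 0.868 CPM. In cKO replicates 1 to 6 they were 1.44, 1.19, 1.98, 1.39, 2.17 and 1.99 CPM. The groups overlapped, with control replicate 1 the highest control pool and 3 of 6 cKO pools above every control pool. The means were 0.999 ± 0.477 and 1.70 ± 0.402 CPM (SD, n = 6 each), a log2 fold change of 0.73 (SE 0.28, adjusted p = 0.126 by edgeR). Without control replicate 1 the log2 fold change was 1.07 (SE 0.25, adjusted p = 0.0107 by edgeR), which passes the threshold, in a fit that called 19.9% of all genes tested. Over all alternatives it lay between 0.60 and 1.07, with adjusted p from 0.0107 to 0.222.

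The Slc6a13 levels also followed Xist. The 4 pools with Xist over 100 CPM, one of them control, had 1.81 to 2.17 CPM and the 8 others 0.518 to 1.44 CPM, with no overlap. This was noticed after the values were seen and was not tested. In the 8 pools with low Xist alone, the log2 fold change of Slc6a13 between genotypes was 0.78 (adjusted p = 0.092 by edgeR).

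Slc6a12 (Entrez Gene 14411, chr6:121346697-121365773) encodes the betaine and GABA transporter, which kidney cells use to take up betaine under osmotic load. Its gene lies 8979 bases beyond the end of Slc6a13 on the same strand. Control replicates 1 to 6 had 0.298, 0.488, 0.578, 0.612, 0.536 and 0.723 CPM. The cKO replicates had 0.397, 0.595, 0.230, 0.622, 0.136 and 0.368 CPM. The groups overlapped, and 2 cKO pools lay below every control pool. The means were 0.539 ± 0.143 and 0.391 ± 0.193 CPM (SD, n = 6 each), a log2 fold change of -0.34 (SE 0.31, adjusted p = 0.512 by edgeR). The pools with high Xist were here the 4 lowest, at 0.136 to 0.368 CPM against 0.397 to 0.723 CPM in the 8 others, which is the opposite order to that of Slc6a13. Among the 8 pools with low Xist the log2 fold change of Slc6a12 was -0.09.

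Slc6a6 (Entrez Gene 21366, chr6:91684067-91759063) encodes the taurine transporter, which also carries GABA weakly. It was the most abundant of the 4 transporters. Control replicates 1 to 6 had 159, 132, 132, 144, 87.0 and 125 CPM, and cKO replicates had 162, 159, 146, 148, 108 and 111 CPM. The groups overlapped from 108 to 159 CPM. The means were 130 ± 24.2 and 139 ± 23.6 CPM (SD, n = 6 each), a log2 fold change of 0.10 (SE 0.14, adjusted p = 0.672 by edgeR). In the 8 pools with low Xist it was 0.34 (adjusted p = 0.128 by edgeR).

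The glutamate decarboxylases were near the limit of detection. Gad1 (Entrez Gene 14415, chr2:70562129-70602014) makes most of the GABA of neurons. Its levels in control replicates 1 to 6 were 0.595, 0.976, 0.553, 0.612, 0.689 and 0.578 CPM. In cKO replicates 1 to 6 they were 0.397, 0.397, 0.660, 0.534, 0.271 and 0.318 CPM. Of the cKO pools, 5 of 6 lay below every control pool, and cKO replicate 3 lay among the control pools. The means were 0.667 ± 0.158 and 0.430 ± 0.144 CPM (SD, n = 6 each), a log2 fold change of -0.58 (SE 0.25, adjusted p = 0.161 by edgeR). The gene overlaps Gad1os on the opposite strand, and counting was by strand.

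Gad2 (Entrez Gene 14417, chr2:22622327-22693877) encodes the decarboxylase form found at nerve terminals. Control replicates 1 to 6 had 0.514, 0.569, 0.930, 0.659, 0.612 and 0.000 CPM. The 0 in control replicate 6, the shallowest library, allows up to 0.434 CPM at 3 counts, a limit for counting error only. The cKO replicates had 1.26, 0.727, 0.488, 0.474, 0.814 and 0.904 CPM. The groups overlapped, with means of 0.547 ± 0.305 and 0.779 ± 0.294 CPM (SD, n = 6 each) and a log2 fold change of 0.35 (SE 0.36, adjusted p = 0.559 by edgeR). Over all 12 libraries Gad1 had 173 counts and Gad2 had 231 counts, so the differences of both genes rest on few counts.

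The degrading enzymes were abundant and nearly level. Abat (Entrez Gene 268860, chr16:8513429-8621568) encodes GABA transaminase, which removes the amino group of GABA. Control replicates 1 to 6 had 139.0, 139.8, 135.6, 130.1, 147.2 and 144.6 CPM, and cKO replicates had 143.4, 128.2, 140.4, 129.6, 142.3 and 152.2 CPM. The groups overlapped over nearly all of their range. The means were 139.4 ± 6.15 and 139.4 ± 9.09 CPM (SD, n = 6 each), a log2 fold change of 0.00052 (SE 0.059, adjusted p = 0.998 by edgeR).

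Aldh5a1 (Entrez Gene 214579, chr13:24907579-24937661, - strand) encodes succinic semialdehyde dehydrogenase, the step after Abat. Control replicates 1 to 6 had 36.5, 32.0, 30.3, 32.1, 22.0 and 26.0 CPM, and cKO replicates had 34.8, 31.5, 34.4, 33.3, 33.8 and 31.4 CPM. The cKO pools lay inside the range of the control pools, whose spread came mainly from replicates 5 and 6 below the rest. The means were 29.8 ± 5.12 and 33.2 ± 1.44 CPM (SD, n = 6 each), a log2 fold change of 0.15 (SE 0.10, adjusted p = 0.379 by edgeR).

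Levels were compared between genes as CPM per kilobase of transcript. In control testes Abat was highest, at 30.1 ± 1.33 CPM per kilobase (SD, n = 6), followed by Slc6a6 at 21.0 ± 3.91 and Aldh5a1 at 5.28 ± 0.908. Below these came Slc6a13 at 0.447 ± 0.214, Slc6a12 at 0.204 ± 0.0539 and Gad1 at 0.199 ± 0.0471 CPM per kilobase. Gad2 at 0.0953 ± 0.0531 and Slc6a11 at 0.0848 ± 0.0456 CPM per kilobase were lowest in control testes. The ranges over pools did not overlap between Abat, Slc6a6, Aldh5a1 and Slc6a13, whereas from Slc6a13 downwards each gene overlapped the next, except that Gad1 lay just above Gad2. In cKO testes Slc6a11 came next after Aldh5a1, at 0.891 ± 0.256 CPM per kilobase (SD, n = 6), and its range of 0.624 to 1.34 overlapped that of Slc6a13, 0.533 to 0.972. The other genes of cKO testes ran from 30.1 ± 1.96 for Abat to 0.128 ± 0.0429 CPM per kilobase for Gad1. Even in cKO testes Slc6a11 was thus at a lower level per kilobase than Slc6a6, at 22.5 ± 3.82 CPM per kilobase.

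Nr2f2 levels differed among the cKO pools, and each member was compared with Nr2f2 on log2 CPM over these 6 pools, 8 relations in all with exact permutation p over 720 pairings and Benjamini-Hochberg adjustment. Slc6a13 was lower where Nr2f2 was higher, with Pearson's r = -0.888 (exact permutation p = 0.00278, adjusted p = 0.0222) and Spearman's rho = -0.943 (exact permutation p = 0.0167, adjusted p = 0.0668). Without the 2 pools farthest from the median of Nr2f2, replicates 2 and 5, r was -0.673. The pools with high Xist, cKO replicates 3, 5 and 6, were the 3 highest in Slc6a13 and the 3 lowest in Nr2f2, and 3 pools on either side were too few for a value within each. The relation with Nr2f2 and that with Xist cannot be told apart here.

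Slc6a6 ran the other way, higher where Nr2f2 was higher, with r = 0.889 (exact permutation p = 0.0181, adjusted p = 0.0724) and rho = 0.943 (exact permutation p = 0.0167, adjusted p = 0.0668), and r = 0.974 without replicates 2 and 5. This failed the adjustment. Among cKO pools, those with high Xist were also the 3 lowest in Slc6a6, at 108 to 146 CPM against 148 to 162 CPM in the 3 others. Within the cKO pools the relations of Slc6a6 with Nr2f2 and with Xist thus cannot be told apart. Control replicate 1, also high in Xist, was instead the highest control pool in Slc6a6, at 159 CPM. For Slc6a11, r was 0.295 (exact permutation p = 0.588, adjusted p = 0.784), rho was 0.486 (exact permutation p = 0.356, adjusted p = 0.559) and r without replicates 2 and 5 was 0.215. Leaving out each pool in turn gave r from -0.0687 to 0.543 for Slc6a11, so among cKO pools its level had no stable direction against Nr2f2. Slc6a11 was at 2.58 to 3.72 CPM in the 3 cKO pools with high Xist and at 3.44 to 5.54 CPM in the 3 others. For Slc6a11 too, Nr2f2 and Xist cannot be told apart among these 6 pools. The 5 other members had adjusted p from 0.152 to 0.793 for Pearson's r by the exact permutation test, with r from -0.774 for Abat to 0.704 for Slc6a12.

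**Figure D2:**
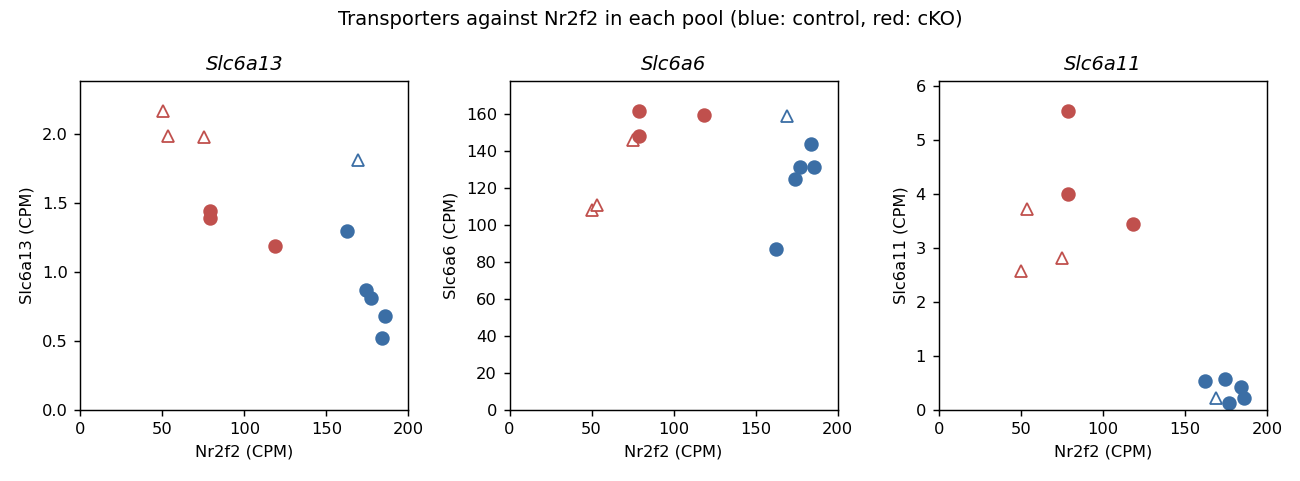
Slc6a13, Slc6a6 and Slc6a11 against Nr2f2, both in CPM, in 6 control pools (blue) and 6 cKO pools (red), one point per pool; open triangles are pools with Xist over 100 CPM. Among cKO pools Slc6a13 falls and Slc6a6 rises with Nr2f2 (r = -0.888 and 0.889), where the 3 pools with the lowest Nr2f2 are those with high Xist, and Slc6a11 shows no stable slope (r = 0.295).

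The genes next to the members were examined, 3 on each side. Atp2b2, which lies 89161 bases from Slc6a11 on its upstream side and encodes a plasma membrane calcium pump, was at 2.88 ± 0.586 CPM in control and 4.55 ± 0.917 CPM in cKO pools (SD, n = 6 each), a log2 fold change of 0.67 (SE 0.17, adjusted p = 0.0265 by edgeR). Its call was lost in 5 of 12 fits that left out 1 pool, with adjusted p up to 0.0848 over all alternatives. Sec13, a coat protein of vesicles 390560 bases away, was at 105 ± 12.5 CPM in control and 87.4 ± 2.18 CPM in cKO pools (SD, n = 6 each), a log2 fold change of -0.27 (SE 0.08, adjusted p = 0.0456 by edgeR). That call was lost in 11 of 12 such fits, with adjusted p up to 0.102. None of the other neighbours tested was called by edgeR.

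Among the 5 genes whose levels followed Slc6a11 most closely from pool to pool, after each group's mean was taken out, were C430049B03Rik (r = 0.882), Prelid2 (r = 0.857), Tent5a (r = 0.852), Ulbp1 (r = 0.839) and Lyn (r = 0.836), out of 14262 genes averaging 1 CPM or more. These r are over 12 libraries, are given as a description, and share library depth, while Slc6a11 in control libraries rests on single-digit counts. None of the 5 was called between genotypes by edgeR (adjusted p from 0.475 to 0.911).

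Genes around the pathway were taken from 6 lists, chosen like the members with earlier results known. Of 73 listed genes 52 were tested, and 10 of these (19.2%) were called by edgeR, 3 higher and 7 lower, beside 8.13% of all genes tested. Leaving out 1 pool gave from 6 to 12 calls, with 6 without cKO replicate 4. Without control replicate 1 the lists had 12 of 54 genes called (22.2%), beside 19.9% of all genes tested, so the shares lay close together.

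GABA receptor subunits had 12 of 21 genes tested, with 1 higher, 1 lower and 10 not called, and a median log2 fold change of 0.02. Gabra4, a subunit of the chloride channel receptor, ranged from 19.0 to 32.6 CPM in control (median 25.5) and from 11.2 to 21.2 CPM in cKO pools (median 14.4), with 5 of 6 cKO pools below every control pool. It fell, with means of 26.1 ± 5.33 and 15.3 ± 3.81 CPM (SD, n = 6 each) and a log2 fold change of -0.77 (SE 0.17, adjusted p = 0.012 by edgeR). Gabrb2, a β subunit of the same receptor class, ranged from 4.03 to 9.25 CPM in control (median 6.88) and from 8.59 to 13.8 CPM in cKO pools (median 12.6). It rose, from 6.87 ± 2.02 to 11.7 ± 2.29 CPM (SD, n = 6 each), a log2 fold change of 0.81 (SE 0.20, adjusted p = 0.0202 by edgeR). The call of Gabra4 held in all 20 alternatives, and that of Gabrb2 in 18 of 20, lost without cKO replicate 4 and under the replicate block (adjusted p = 0.0673 by edgeR).

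Genes of other GABA handling had 4 of 6 tested and 0 called by edgeR. The most abundant were Aldh9a1, an aldehyde dehydrogenase that can form GABA from an aldehyde, at 54.5 CPM in control and 57.4 CPM in cKO pools, and Akr7a5, an aldehyde reductase, at 38.4 and 40.9 CPM. Slc32a1, which loads GABA into synaptic vesicles, was not tested, at 0.464 ± 0.228 and 0.186 ± 0.106 CPM (SD, n = 6 each) with overlapping groups.

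Genes of glutamate and glutamine supply, which feeds GABA synthesis, were all tested (14 of 14), with 1 higher and 3 lower. Slc1a3, a glutamate transporter, ranged from 10.9 to 17.6 CPM in control (median 13.2) and from 6.65 to 8.62 CPM in cKO pools (median 7.54). Slc1a2, another glutamate transporter, ranged from 2.84 to 5.36 CPM in control (median 3.61) and from 1.29 to 2.25 CPM in cKO pools (median 1.90). For both genes all 6 cKO pools lay below every control pool, as for 3.13% of all genes tested. Slc1a3 fell with a log2 fold change of -0.83 (SE 0.12, adjusted p = 0.000728 by edgeR) and Slc1a2 with -1.02 (SE 0.19, adjusted p = 0.00419 by edgeR), and both calls held in all 20 alternatives. Slc38a2, a glutamine transporter, fell from 331 ± 32.6 to 274 ± 5.59 CPM (SD, n = 6 each; log2 fold change -0.27, SE 0.07, adjusted p = 0.0251 by edgeR). Glul, glutamine synthetase, rose from 123 ± 15.8 to 155 ± 16.3 CPM (SD, n = 6 each; log2 fold change 0.33, SE 0.09, adjusted p = 0.0441 by edgeR). The calls of Slc38a2 and Glul were lost in 7 and 9 of the 12 fits that left out 1 pool.

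Taurine and betaine metabolism had 9 of 12 genes tested, with 0 higher and 2 lower. Chdh, choline dehydrogenase, which starts betaine synthesis, ranged from 7.80 to 15.04 CPM in control (median 12.0) and from 1.63 to 7.44 CPM in cKO pools (median 5.02), with no overlap and cKO lower, as for 3.13% of all genes tested. It fell from 11.9 ± 2.68 to 4.73 ± 2.35 CPM (SD, n = 6 each), a log2 fold change of -1.31 (SE 0.29, adjusted p = 0.0119 by edgeR), called in all 20 alternatives. Fmo1, a flavin monooxygenase that can form taurine from hypotaurine, fell from 3.18 ± 1.49 to 1.22 ± 0.689 CPM (SD, n = 6 each; log2 fold change -1.37, SE 0.40, adjusted p = 0.0492 by edgeR), a call lost in 10 of the 12 fits that left out 1 pool and in the 8 pools with low Xist (adjusted p = 0.0756 by edgeR). Beside these, 4 of 5 fetal Leydig cell markers were called lower by edgeR, as were 4.85% of all genes tested. The summed level of the 5 markers was 1561 to 2910 CPM in control and 841 to 1745 CPM in cKO pools. The part of Leydig cell number in the falls of these lists was not tested.

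Osmotic response genes were all tested (5 of 5), with 1 higher and 1 lower. Hspa4l, a heat shock protein induced by osmotic stress, rose from 31.6 ± 4.25 to 48.9 ± 12.3 CPM (SD, n = 6 each; log2 fold change 0.62, SE 0.15, adjusted p = 0.0199 by edgeR), but in the 8 pools with low Xist its log2 fold change was 0.40 (adjusted p = 0.0572 by edgeR). Akr1b3, aldose reductase, which makes the osmolyte sorbitol, fell from 204 ± 37.0 to 150 ± 6.53 CPM (SD, n = 6 each; log2 fold change -0.44, SE 0.10, adjusted p = 0.019 by edgeR). Other SLC6 transporters had 8 of 15 genes tested and 0 called by edgeR. Among these Slc6a8, the creatine transporter, was at 55.4 CPM in control and 54.2 CPM in cKO pools, and Slc6a9, a glycine transporter, at 32.6 and 35.7 CPM.

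**Figure D3:**
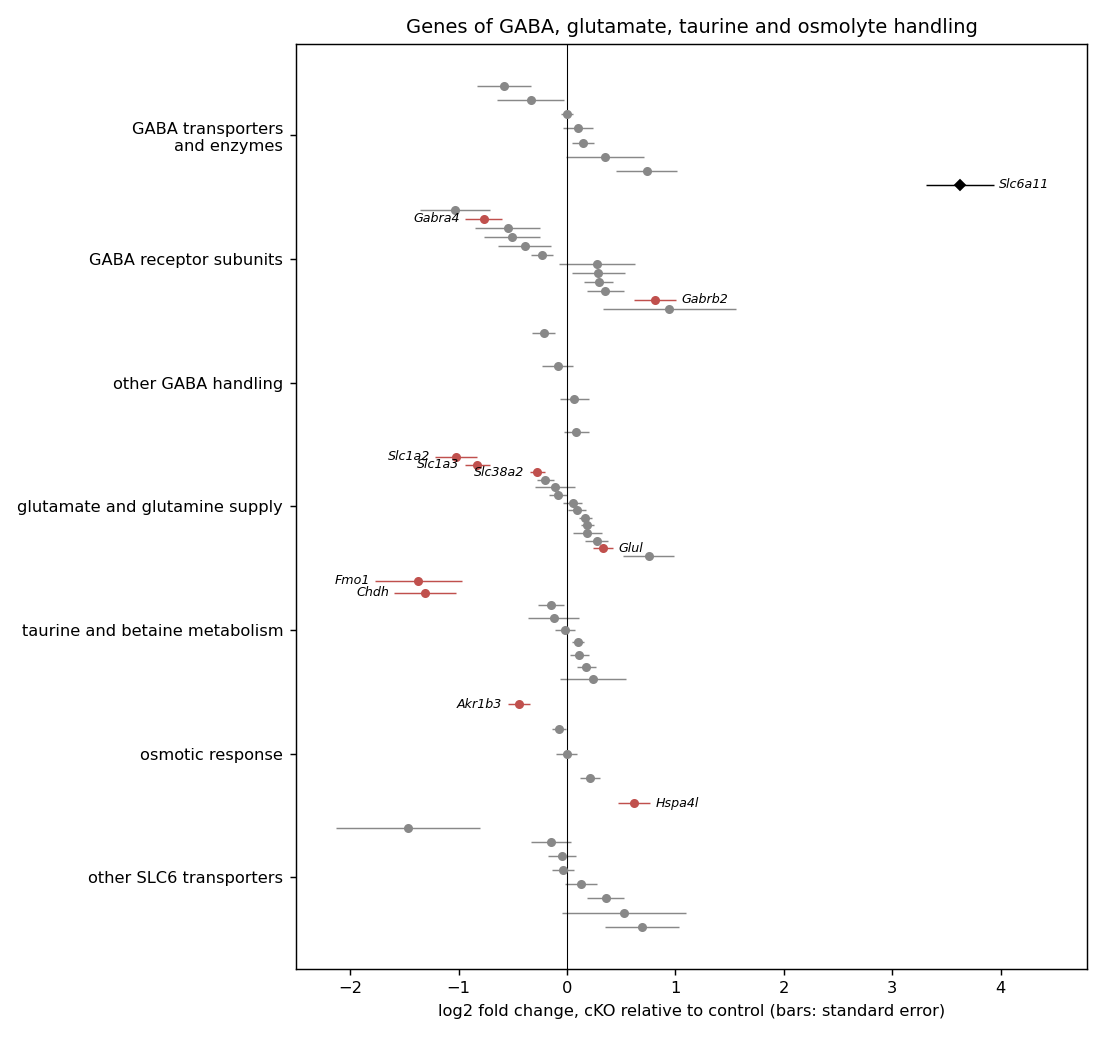
Log2 fold changes of cKO relative to control testes (points) with standard errors (bars) for the 8 members and the 52 tested genes of the 6 lists; red points were called by edgeR, grey points were not, and the black diamond is Slc6a11, shown without a test. Slc6a11 lies at 3.62, away from every other gene shown, of which the called ones run from -1.37 (Fmo1) to 0.81 (Gabrb2).

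Since Slc6a11 is known from astrocytes and other members from neurons, markers of nerve cells were read beside them. Neuron markers summed to 6.81 to 8.70 CPM in control and 5.88 to 7.60 CPM in cKO pools, with 0 of 4 tested genes called by edgeR. Glia and Schwann cell markers summed to 38.5 to 60.2 CPM in control and 41.9 to 52.5 CPM in cKO pools, and 1 of 7 was called, beside 8.13% of all genes tested. That gene was S100b, a calcium-binding protein of glia, which rose from 0.834 ± 0.246 to 1.78 ± 0.399 CPM (SD, n = 6 each; log2 fold change 1.11, SE 0.23, adjusted p = 0.0075 by edgeR). Its groups did not overlap, as for 2.39% of all genes tested with cKO pools higher. Gfap, an astrocyte filament protein, was at 0.711 ± 0.145 and 1.099 ± 0.204 CPM (SD, n = 6 each; adjusted p = 0.0654 by edgeR). Sox10, a defining glial transcription factor, was at 11.1 ± 3.10 and 8.52 ± 1.44 CPM (SD, n = 6 each) and was not called. Markers of macrophages and of mesonephric tubule were read as well. Macrophage markers summed to 31.5 to 44.9 CPM in control and 50.0 to 63.5 CPM in cKO pools, and 3 of 6 were called higher, with a median log2 fold change of 0.58. Csf1r, a receptor that macrophages need for survival, rose from 14.8 ± 1.79 to 20.01 ± 1.32 CPM (SD, n = 6 each; log2 fold change 0.44, SE 0.09, adjusted p = 0.00749 by edgeR). Cx3cr1, a chemokine receptor, rose from 6.32 ± 1.499 to 12.1 ± 1.79 CPM (SD, n = 6 each; log2 fold change 0.92, SE 0.15, adjusted p = 0.00185 by edgeR). For both, all 6 cKO pools lay above every control pool, as for 2.39% of all genes tested. Mesonephric tubule markers summed to 45.8 to 86.2 CPM in control and 44.5 to 70.0 CPM in cKO pools, and 2 of 5 tested were called higher, with a median log2 fold change of 0.64. Most of that sum is Emx2, a transcription factor of the urogenital system, at 44.9 ± 14.9 CPM in control and 40.3 ± 11.0 CPM in cKO pools (SD, n = 6 each; log2 fold change -0.17, adjusted p = 0.624 by edgeR), and at 43.3 to 75.03 CPM in the 4 pools with high Xist against 29.1 to 41.8 CPM in the 8 others. The genes called higher were Lhx1, from 4.69 ± 1.95 to 8.60 ± 1.95 CPM (SD, n = 6 each; adjusted p = 0.0418 by edgeR), and Pax8, from 3.79 ± 0.626 to 5.27 ± 0.690 CPM (SD, n = 6 each; adjusted p = 0.0488 by edgeR), both transcription factors of kidney tubules. The calls of Lhx1 and Pax8 were lost in 8 and 10 of the 12 fits that left out 1 pool and, for both, in the 8 pools with low Xist (adjusted p = 0.107 and 0.0808 by edgeR), while those of Csf1r and Cx3cr1 held in all 20 alternatives. The part of glial cells, macrophages and mesonephric tubule in the Slc6a11 difference was not tested.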

How the data were processed

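Whole-testis RNA of 6 control and 6 cKO pools was sequenced from strand-specific libraries. Per the submitters' processing notes and the paper, the authors trimmed reads (Trim Galore 0.6.7), aligned them to mm10 (STAR 2.5) and counted them by strand on RefSeq Curated genes (featureCounts of Subread 1.5.0-p1). The deposited values are raw counts per gene, unnormalized, for 24470 genes.

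All 12 libraries were grouped by the genotype in their labels. The analysis ran in R 4.3.3 and edgeR 4.0.16, using TMM scaling, filterByExpr (minimum count 10, total 15), which left 15572 genes, and glmQLFit and glmQLFTest with no covariate, where the study used DESeq2. P-values were adjusted by Benjamini-Hochberg over all genes with a threshold of 0.05. SE is the fold change divided by the square root of F. CPM use TMM-scaled sizes, with a prior count of 2 for log2. The biological coefficient of variation was 0.17. Depth limits precision for genes under about 1 CPM. Transcript lengths came from the longest RefSeq-linked GENCODE M21 transcript, and motifs were searched in RefSeq windows of GRCm38.p6, the assembly of mm10.

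Named genes were the members, Nr2f2, called genes of each list or its 2 most abundant, called neighbours, the 5 genes most like Slc6a11, and markers beside a result. S100b, Gfap, Sox10, Csf1r, Cx3cr1, Lhx1, Pax8, Emx2, Amh, Ptgds, Foxl2, Xist, Slc32a1 and the genes sharing 2 CAAGGTCA copies were picked with their values known. Members and lists were chosen with earlier results of these data known. Part of the neighbouring-gene and list results is not reported here. Alternatives were RLE and upper-quartile scaling, other filters, DESeq2 1.42.0 with its defaults, limma-voom (limma 3.58.1), a replicate block, leaving out each pool and, added after seeing the data, the 8 pools with Xist under 100 CPM.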

Additional observations from a re-analysis of the deposited data

Results flagged for a closer look

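Gad1 in control pools had 1 pool far from the others. Control replicate 2 was at 0.976 CPM and the next highest pool at 0.689 CPM, a gap of 0.68 of the group's range, above Dixon's critical value for 6 samples. Of 18 groups of pools tested in this way this was the only such case. Chance gives about 1 such case in 20 groups, so 1 case in 18 is near what chance gives. Without control replicate 2 the log2 fold change of Gad1 was -0.43 (adjusted p = 0.325 by edgeR).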

How the results depend on the processing

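The direction of 6 of the 7 members other than Slc6a11 held in every alternative that could be fitted (a minimum count of 50 left out Slc6a12, Slc6a13, Gad1 and Gad2). Abat, with a log2 fold change near 0, turned to -0.000272 with RLE scaling, -0.00134 with the replicate block and -0.0541 in the 8 pools with Xist under 100 CPM, and ranged from -0.0264 to 0.0235 when each pool was left out. Slc6a13 ranged from 0.60 to 1.07 when each pool was left out, and was called only without control replicate 1. Within cKO pools, leaving out each pool gave r against Nr2f2 from -0.0687 to 0.543 for Slc6a11 and from -0.628 to 0.568 for Aldh5a1. The count of all called genes was 1919 by DESeq2, and lay between 816, which was reached without cKO replicate 4, and 3106, reached without control replicate 1, when each pool was left out, and the calls in the 6 lists then ran from 6 to 12. Replicate numbers did not pair the pools, with correlations of same-numbered pools from -0.334 to 0.242 and 1 of 12 libraries correlating best with its own number. With the replicate block, calls numbered 931 over all genes and 6 in the lists, with Gabrb2, Slc38a2, Fmo1 and Hspa4l no longer called, nor the neighbours Atp2b2 and Sec13 or the marker Pax8, and no call of a member other than Slc6a11 changed. The causes were not tested. Depth limits Slc6a12, Gad1 and Gad2, and Slc6a11 and Slc6a13 in control pools, all with means under 1 CPM.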
